A study of Mus musculus with 6 samples.

Results

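The 34 genes described here are a set of astrocyte genes, chosen by symbol and matched to the rows of a gene count table that held 52636 genes. All 34 were found, and all 34 passed the filter on low counts, among 20473 genes tested. The animals were 3 wild-type mice of the strain C57BL/6J, aged 28 days, whose right eyelids had been kept sutured for 3 days (monocular deprivation). Each mouse gave a total-RNA library from the left primary visual cortex (V1), contralateral to the suture, and another from the ipsilateral right V1, so each hemisphere has 3 libraries, numbered here by mouse. Both hemispheres thus come from deprived animals, and the ipsilateral side is the within-animal control. Tissue was dissected whole, so each value is a mixture over all cell types of V1, and fewer astrocytes and less RNA per astrocyte cannot be told apart.

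Astrocytes take up the glutamate and potassium that neurons release, couple to each other through gap junctions, and contact blood vessels with endfeet rich in water channels. They also secrete proteins that promote or restrain synapse formation, and they take up synaptic material by phagocytosis. In visual cortex they are known for their part in the maturation of synapses and in the closing of the juvenile period in which vision shapes ocular dominance. The genes below are ordered by these roles, and the comparison asks whether their RNA differed between the hemispheres that the open and the closed eye chiefly drive.

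The sequences that bear on the members with the largest hemisphere differences, and on the circular RNA of the set, are shown first. Gpc4 and Thbs4 are shown because they differed most between hemispheres, and Gfap because it is the classical marker of reactive astrocytes. Each promoter runs from 250 bases before the annotated start to 20 bases after it, 5′ to 3′, from RefSeq promoter entries on GRCm38.p6. Gpc4 lies at chrX:52164904-52165173, Thbs4 at chr13:92794799-92795068 and Gfap at chr11:102897181-102897450, all on the minus strand. Capitals mark a match to the STAT motif. The Slc7a11 line joins the last 15 bases of exon 6, in lower case, to the first 15 bases of exon 2, in capitals, as the reads across its back-splice do.
Gpc4: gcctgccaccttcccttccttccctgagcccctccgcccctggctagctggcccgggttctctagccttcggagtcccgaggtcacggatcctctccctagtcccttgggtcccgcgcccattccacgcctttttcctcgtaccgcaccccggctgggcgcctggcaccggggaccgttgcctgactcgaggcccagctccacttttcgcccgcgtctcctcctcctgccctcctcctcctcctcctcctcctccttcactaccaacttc
Thbs4: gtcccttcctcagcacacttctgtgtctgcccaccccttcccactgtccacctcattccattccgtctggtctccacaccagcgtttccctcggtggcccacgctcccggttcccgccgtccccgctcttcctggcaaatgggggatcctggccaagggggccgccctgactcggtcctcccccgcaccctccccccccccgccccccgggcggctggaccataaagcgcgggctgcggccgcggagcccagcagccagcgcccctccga
Gfap: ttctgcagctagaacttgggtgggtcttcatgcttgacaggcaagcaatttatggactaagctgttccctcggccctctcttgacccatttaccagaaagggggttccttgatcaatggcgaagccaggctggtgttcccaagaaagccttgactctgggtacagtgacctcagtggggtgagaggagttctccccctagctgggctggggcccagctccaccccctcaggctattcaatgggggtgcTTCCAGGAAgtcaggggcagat
Slc7a11 circle junction: agacaaccctgaaaaGAGCCCTGTCCTATG

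Promoter entries of 300 bases, ending 50 bases after the start, were matched for 26 of the 34 genes and searched on both strands for 6 motifs. The STAT motif TTCNNNGAA stood in 6 of the 26 (Acsbg1, Aldoc, Gfap, Ntsr2, Slc1a3 and Slc7a11), 23.1% against 9.55% of 27025 genes. The TATA motif TATAAA stood in 5 (Apoe, Gpc5, Slc1a3, Thbs2 and Vim), 19.2% against 15.7%. The AP-1 motif TGANTCA was found in Gja1 alone, 3.85% against 8.97%. The CRE motif TGACGTCA, the palindromic NFI motif and the SOX motif AACAATG were found in none of the 26, against 2.03%, 0.925% and 4.33% of all genes. These letters describe the windows and no factor was measured. The windows of Gpc4 and Thbs4 hold none of the 6 motifs, and they are rich in GC, at 67.0% and 71.1% of the bases shown, against 55.9% for Gfap.

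Libraries held 17849253 to 32213500 reads assigned to genes, and log2 levels correlated between libraries at 0.976 to 0.988. The libraries fall into sets by mitochondrial ribosomal RNA that do not follow the hemispheres: mt-Rnr1 lay between 14.49 and 35.79 counts scaled to the library's total (CPM, counts per 1000000 gene reads) in contralateral library 1 and ipsilateral libraries 1 and 3, and between 2239 and 5791 CPM in the other 3. All 12 excitatory neuron markers and all 12 interneuron markers examined were among the genes tested, whereas 6 of 10 ependymal and choroid plexus markers fell under the filter. Over all genes, 26 passed an adjusted p under 0.05 in edgeR's quasi-likelihood test, all lower in contralateral V1, and 0 did without contralateral library 2 or without mouse 2.

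The astrocyte genes were well covered. A member had between 19 and 268461 reads in a library, and the 34 together took 1.56% to 2.03% of all gene reads. Per kilobase of exonic sequence, the scale that allows genes to be compared, the glutamate transporter Slc1a2 was the highest at 674 CPM per kb. It was followed by the secreted synapse-promoting protein Sparcl1 at 499, glutamine synthetase (Glul) at 443 and the lipid carrier Apoe at 264. At the other end stood the glypican Gpc4 at 3.02 and the thrombospondins Thbs2 at 2.71 and Thbs4 at 1.94 CPM per kb. Slc1a2 alone gave 51.3% to 57.2% of the summed CPM of the set.

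**Figure D1:**
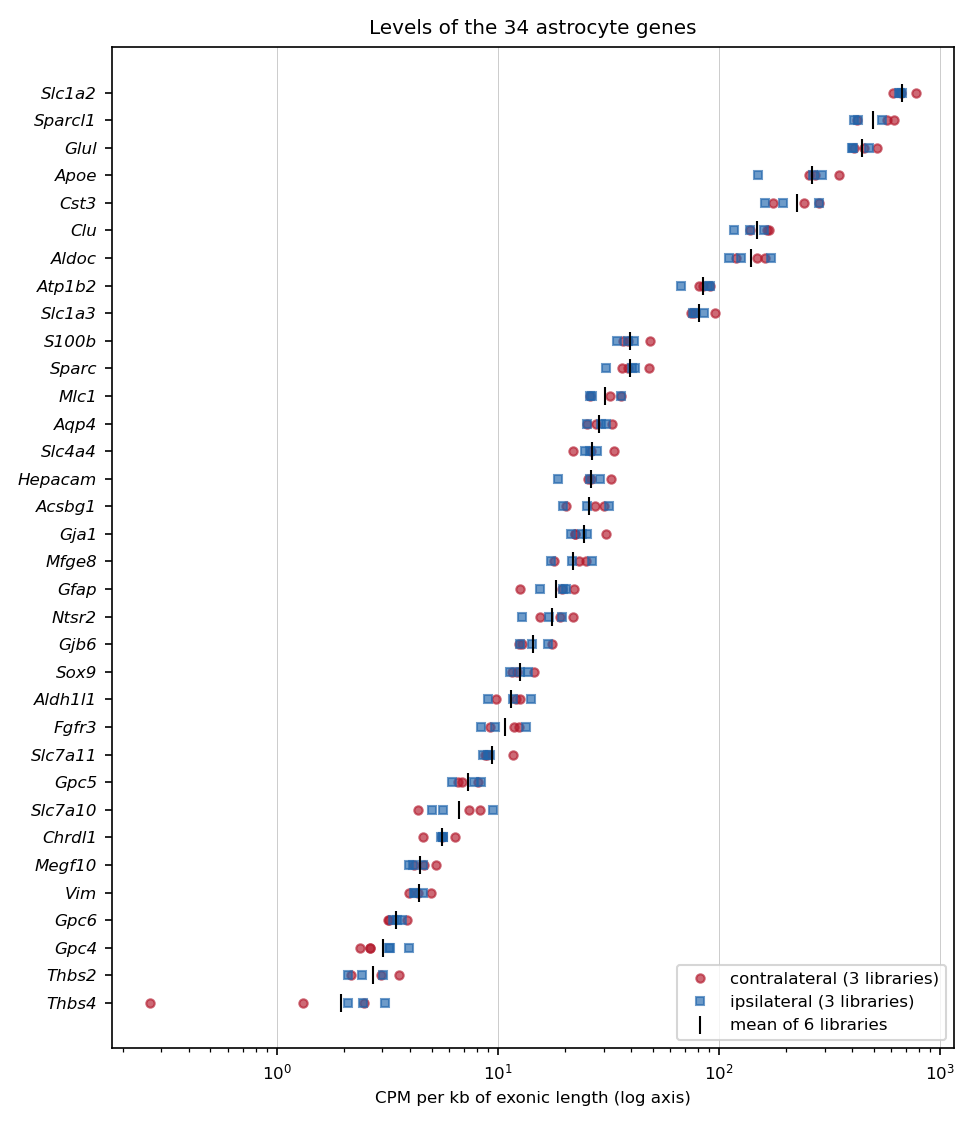
Level of each of the 34 astrocyte genes in CPM per kb of exonic length, on a log axis. Circles are the 3 contralateral and squares the 3 ipsilateral libraries, and black ticks the mean of the 6. Circles and squares intermingle for nearly every gene, from Slc1a2 at 674 down to Thbs4 at 1.94, where contralateral library 3 lies far to the left.

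None of the 34 astrocyte genes passed the test between hemispheres, where 0.127% of all genes tested did. Their log2 fold changes, contralateral against ipsilateral V1, were above 0 for 25 and below 0 for 9, with a median of 0.05. Over all genes the median was 0.03, and 55.4% lay above 0. The members' median was -0.04 without contralateral library 2, -0.03 without ipsilateral library 3 and 0.17 without contralateral library 3. The smallest adjusted p of a member was 0.762, and 1 member had an unadjusted p under 0.05, against 6.15% of all genes. With the mouse as a block, which the shared animals allow, again 0 of the 34 passed (0.894% of all genes did), the smallest adjusted p was 0.170, and 3 had an unadjusted p under 0.05 (13.2% of all genes). DESeq2 also passed 0 of the 34 (0.473% of all genes), with 1 at an unadjusted p under 0.05, against 1173 over all genes.

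These measurements bound the difference for most members. Standard errors of the log2 fold change ran from 0.13 to 0.49 with a median of 0.16, below the median of 0.21 over all genes. For 28 of the 34 the 95% interval lay wholly within a 1.5-fold change either way (0.58 on the log2 scale), as it did for 44.4% of all genes. With the mouse as a block it did for 31. The 6 others without the block were Slc7a10, Sparcl1, Thbs2, Thbs4, Gpc4 and Apoe. Changes smaller than these intervals were not detectable with 3 mice. In simulated counts with as many libraries per hemisphere, 35 of 100 genes changed by 1.5-fold were recovered, and 92 of 100 changed by 2-fold. There were 12 false calls among 20096 genes tested. The simulated libraries of a hemisphere differed only in size and random spread, without mouse pairing or GC trend. Only genes above a set level were changed, so recovery in the real libraries may differ.

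**Figure D2:**
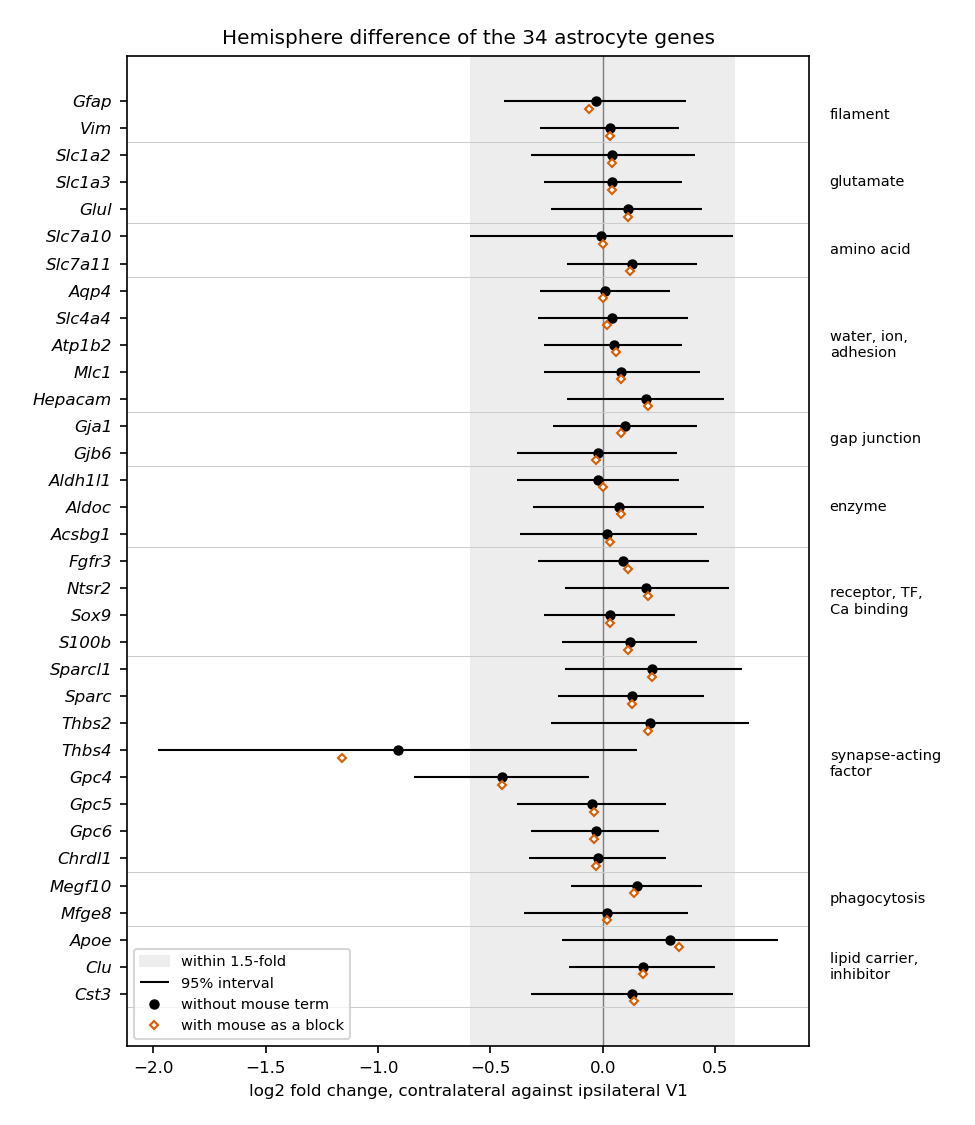
Log2 fold change of each astrocyte gene between contralateral and ipsilateral V1, grouped by role. Black points are the values without a mouse term and black lines their 95% intervals, open diamonds the values with the mouse as a block, and the grey band a change within 1.5-fold. All intervals drawn but that of Gpc4 cross 0, and Thbs4 has the widest, from -1.98 to 0.15. Intervals with the block are not drawn, and those of Thbs4 (-1.92 to -0.39) and Apoe (0.04 to 0.65) also exclude 0.

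The intermediate filament genes, whose rise marks reactive astrocytes, did not pass. Gfap stood at 93.1, 82.1 and 53.0 CPM in contralateral V1 of mice 1 to 3, and at 82.8, 85.7 and 65.2 CPM in ipsilateral V1. The hemispheres overlap, and both libraries of mouse 3 are the lowest. The log2 fold change was -0.03 ± 0.19 (SE), with an adjusted p of 0.984 and a 95% interval from -0.44 to 0.37. With the mouse as a block it was -0.06 ± 0.10 (SE), with an interval from -0.27 to 0.15. Unless stated, values of single genes are from the fit without the block. Vim, the vimentin gene, which astrocytes share with vascular cells, had a log2 fold change of 0.03.

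The genes of glutamate clearance were nearly level. Slc1a2, the main glutamate transporter of forebrain astrocytes, stood at 8040, 10200 and 8690 CPM on the contralateral side and at 8850, 8680 and 8590 CPM on the ipsilateral side. The ipsilateral values are tight at 8710 ± 134 CPM (SD, n = 3), and the contralateral ones lie on both sides of them at 8980 ± 1120. The log2 fold change was 0.04 ± 0.17 (SE), with an adjusted p of 0.973. The second glutamate transporter, Slc1a3, gave 0.04, and Glul, which turns glutamate into glutamine, gave 0.11. Of the amino acid exchangers, Slc7a11, which exports glutamate for cystine, stood at 124, 163 and 122 CPM against 126, 128 and 119 CPM, so that contralateral library 2 alone stood apart (log2 fold change 0.13). Slc7a10, a carrier of small neutral amino acids, gave -0.01 with a wide interval from -0.59 to 0.58.

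The 5 genes of water, ion and membrane handling lay between 0.01 and 0.19 on the log2 scale, and none passed. Aqp4, the water channel of the endfeet, gave 0.01, the bicarbonate cotransporter Slc4a4 0.04, and Mlc1, an endfoot membrane protein, 0.08. Atp1b2, a beta subunit of the sodium pump, stood at 330, 372 and 345 CPM against 365, 372 and 276 CPM, with a log2 fold change of 0.05. Hepacam, an adhesion protein that binds Mlc1, stood at 88.0, 108 and 85.0 CPM against 87.2, 96.7 and 62.8 CPM. Here ipsilateral library 3 is the low value. The log2 fold change was 0.19 ± 0.16 (SE) with an adjusted p of 0.870 (0.388 in the fit blocked by mouse). The gap junction gene Gja1 stood at 229, 316 and 229 CPM against 246, 260 and 219 CPM (0.10), and its partner Gjb6 gave -0.02.

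The metabolic enzymes also overlapped between hemispheres. Aldoc, a glycolytic aldolase, stood at 482, 525 and 387 CPM against 559, 410 and 362 CPM, a log2 fold change of 0.07. The folate enzyme Aldh1l1 gave -0.02 and the fatty acid activating enzyme Acsbg1 0.02. Among receptors and regulators, the neurotensin receptor gene Ntsr2 stood at 59.3, 68.4 and 48.3 CPM against 61.0, 52.8 and 40.1 CPM. Its log2 fold change was 0.19 ± 0.17 (SE), with an adjusted p of 0.871 (0.404 in the fit blocked by mouse). The calcium binding protein gene S100b stood at 57.2, 72.4 and 54.4 CPM against 61.1, 57.4 and 51.1 CPM (0.12). The growth factor receptor gene Fgfr3 gave 0.09 and the transcription factor gene Sox9 0.03.

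The 8 genes whose proteins act on synapses held the 2 lowest log2 fold changes of the set, with 3 above 0 and 5 below. Gpc4, a glypican that astrocytes release and that helps to recruit glutamate receptors to young synapses, lies at chrX:52053021-52165252. It stood at 7.01, 6.31 and 6.96 CPM on the contralateral side and at 8.62, 10.5 and 8.51 CPM on the ipsilateral side, means of 6.76 ± 0.39 and 9.23 ± 1.14 (SD, n = 3). Every contralateral value is below every ipsilateral one, as for 6.29% of all genes, and it was the sole member lower in contralateral V1 in all 3 mice, as 17.3% of all genes were. The log2 fold change was -0.45 ± 0.18 (SE), with an unadjusted p of 0.0264 and an adjusted p of 0.762 (0.244 in the fit blocked by mouse). Gpc4 therefore did not pass the test over all genes. The other glypicans lay near 0. Gpc5 stood at 29.2, 36.3 and 30.7 CPM against 37.3, 34.6 and 27.6 CPM (-0.05), and Gpc6 at 30.2, 36.5 and 30.1 CPM against 32.9, 34.8 and 31.4 CPM (-0.03). The differences between glypicans were not tested.

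Thbs4, a thrombospondin that promotes the formation of excitatory synapses, lies at chr13:92751590-92794818 and was the most variable member. It stood at 8.15, 4.33 and 0.876 CPM in the contralateral libraries (164, 81 and 19 reads), and at 6.88, 10.1 and 8.02 CPM in the ipsilateral ones (138, 312 and 196 reads). The hemispheres overlap through mouse 1, where the contralateral side was the higher, while contralateral library 3 is far below all others. The log2 fold change was -0.91 ± 0.49 (SE), with an adjusted p of 0.824. With the mouse as a block it was -1.16, with an adjusted p of 0.170. Thbs4 passed without the filter on low counts (adjusted p = 0.0211, 0.313% of genes called) and without mouse 1 (0.0104, 0.184%). It also passed within the libraries high in mt-Rnr1 (7.07e-07, 0.131%), where 1 ipsilateral library stands against contralateral values of 4.33 and 0.876 CPM, so that this p holds no measure of the ipsilateral spread. Within the libraries low in mt-Rnr1 its log2 fold change was 0.12, without contralateral library 3 it was -0.42, and without contralateral library 1 it was -1.74 (adjusted p = 0.0658). The 14 oligodendrocyte markers, all tested, were also lowest in contralateral library 3, with a median log2 deviation of -0.48 and a summed level of 3950 to 6600 CPM in contralateral and 5510 to 6870 CPM in ipsilateral libraries. Their part in the Thbs4 values was not tested.

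The remaining synapse-acting members lay between -0.02 and 0.22. Sparcl1, also called hevin, which bridges synaptic adhesion proteins, stood at 1240, 1810 and 1690 CPM against 1250, 1610 and 1200 CPM. Both libraries of mouse 1 and ipsilateral library 3 were low, and the log2 fold change was 0.22 ± 0.18 (SE) with an adjusted p of 0.869. Its antagonist Sparc gave 0.13. Thbs2, a relative of Thbs4, gave 0.21, opposite in sign to Thbs4 but likewise not past the test. Chrdl1, which favours the change to calcium-impermeable glutamate receptors, gave -0.02.

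**Figure D3:**
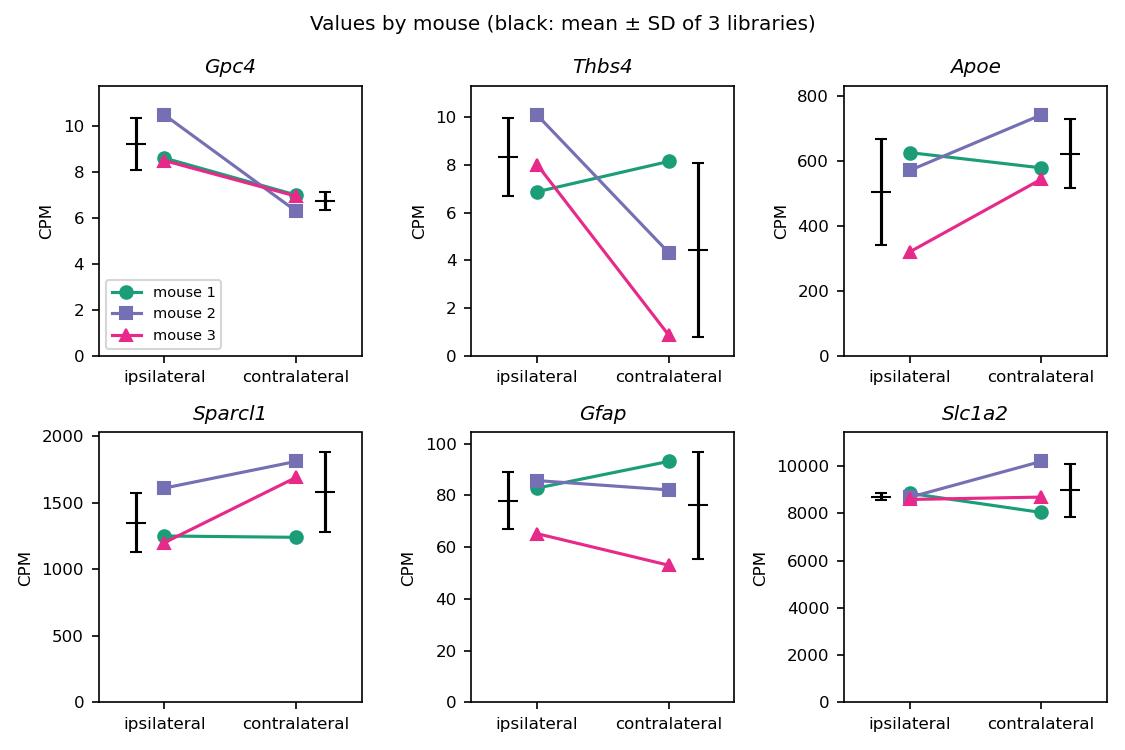
CPM of 6 astrocyte genes by hemisphere, with each line joining the hemispheres of a mouse; black marks are the mean ± SD of 3 libraries, and the axes start at 0. All 3 lines fall from ipsilateral to contralateral for Gpc4, those of mice 2 and 3 fall for Thbs4, and the lines of the other genes run in mixed directions.

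Phagocytosis genes overlapped as well. Mfge8, which bridges dying cells to phagocytes, stood at 117, 109 and 83.9 CPM against 125, 101 and 81.6 CPM (log2 fold change 0.02), and the engulfment receptor gene Megf10 gave 0.15. The largest fold change above 0 among the members was that of Apoe, and it did not pass. Apoe, the main lipid carrier that astrocytes secrete, stood at 579, 742 and 544 CPM against 626, 571 and 320 CPM. Ipsilateral library 3 is the lowest and contralateral library 2 the highest, and the hemispheres overlap. The log2 fold change was 0.30 ± 0.22 (SE), with an adjusted p of 0.859 (0.308 in the fit blocked by mouse). Clu, the carrier clusterin, stood at 565, 577 and 475 CPM against 551, 476 and 403 CPM, with a log2 fold change of 0.18 and an adjusted p of 0.870. The protease inhibitor gene Cst3 gave 0.13.

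Paired by mouse, the members moved in opposite directions in different animals. The median difference, contralateral minus ipsilateral on the log2 scale, was -0.10 in mouse 1, 0.25 in mouse 2 and 0.04 in mouse 3, where all genes gave 0.00, 0.03 and 0.02. In mouse 1, 28 of the 34 were lower on the contralateral side, in mouse 2 31 were higher, and in mouse 3 25 were higher. Thus 29 members had mixed directions, 4 were higher in all 3 mice (Clu, Hepacam, Megf10 and Thbs2, where 19.2% of all genes were), and Gpc4 alone was lower in all 3.

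The highest values gathered chiefly in contralateral library 2 and the lowest in ipsilateral library 3. Ipsilateral library 1 and contralateral library 3 were displaced as well, by smaller medians. Contralateral library 2 was the highest of the 6 for 21 of the 34 members (27.0% of all genes), and ipsilateral library 3 the lowest for 20 (20.4% of all genes). The median deviation from each gene's own mean was 0.21 in contralateral library 2 and -0.20 in ipsilateral library 3, against 0.03 and -0.01 over all genes. In the other libraries it was 0.00 and -0.11 in contralateral libraries 1 and 3, and 0.12 and -0.01 in ipsilateral libraries 1 and 2. Above their own mean were 29 of the 34 in ipsilateral library 1 and 4 in contralateral library 3 (50.6% of all genes in each). Ipsilateral library 1 was the highest for 9 members (17.2% of all genes) and contralateral library 3 the lowest for 7 (11.3%). The spread was not wide: the highest library exceeded the lowest by a median of 1.48-fold over the members, against 1.53-fold over all genes, both with 0.5 CPM added.

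**Figure D4:**
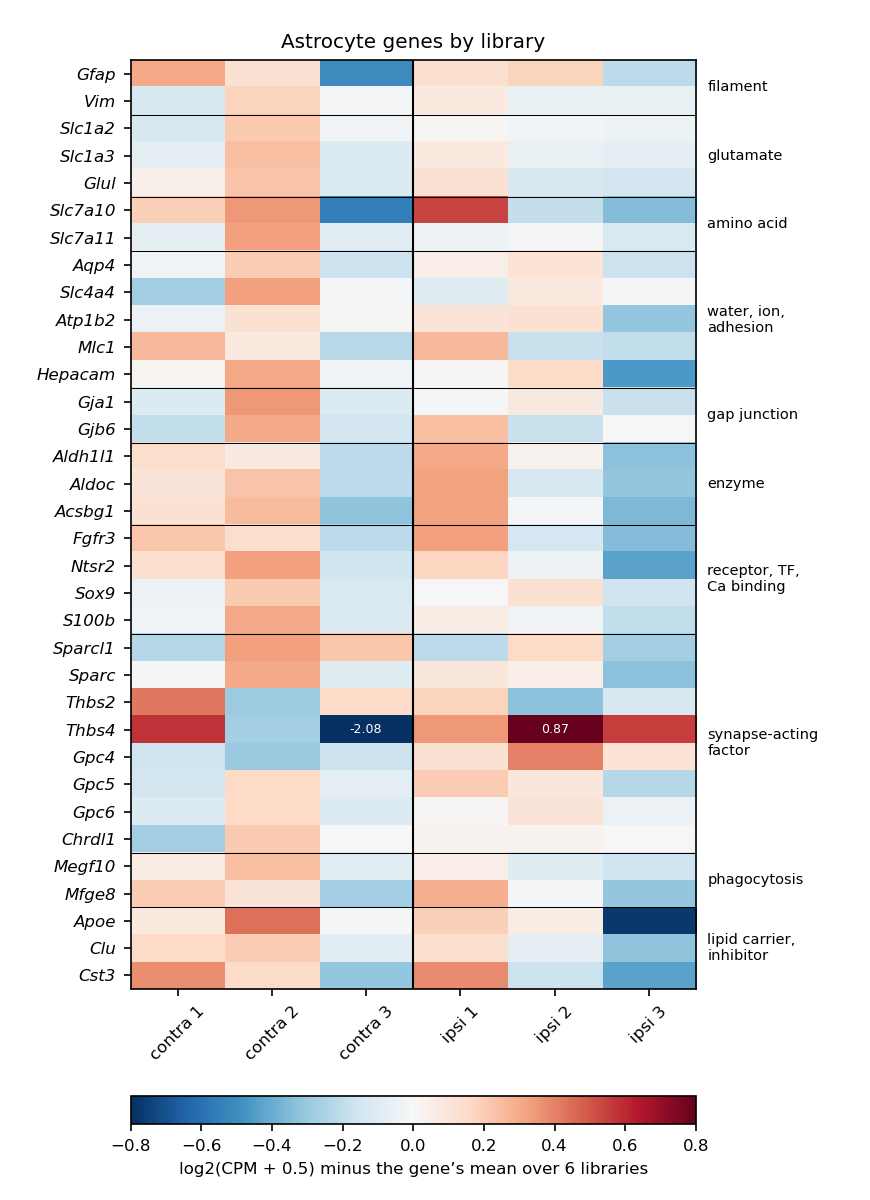
Log2(CPM + 0.5) of each astrocyte gene in each library minus its mean over the 6 libraries, grouped by role, red above and blue below the mean. The scale ends at 0.8, and the values beyond it are printed. The contralateral library 2 column is mostly red, with a median of 0.21, and the ipsilateral library 3 column mostly blue, with a median of -0.20. The ipsilateral library 1 column is also mostly red (0.12) and the contralateral library 3 column mostly blue (-0.11).

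A separate list of 56 other astrocyte-enriched genes, all tested, had the same shape over libraries, at 0.03, 0.19 and -0.12 on the contralateral side and 0.11, 0.00 and -0.16 on the ipsilateral. Markers of other cells also deviated in these libraries. The 15 microglia markers were at 0.27 in contralateral library 2 and -0.31 in ipsilateral library 3, with summed levels of 373 to 497 CPM in contralateral and 335 to 449 CPM in ipsilateral libraries. The 14 endothelial markers were at 0.26 and -0.09 (417 to 553 and 415 to 450 CPM). The 12 excitatory neuron markers were at -0.35 in contralateral library 2 and 0.02 in ipsilateral library 3 (5320 to 5850 and 4520 to 5990 CPM). Markers of oligodendrocyte precursors (0.21 and -0.32), mural cells (0.22 and -0.25) and meningeal cells (0.22 and -0.32) moved with both libraries, and interneuron markers were at -0.32 and -0.05. The oligodendrocyte markers, at 0.14 and 0.08, did not fall in ipsilateral library 3. The mitochondrially encoded genes deviated most, at 0.82 in contralateral library 2 and -0.65 in ipsilateral library 3. All of these markers but mt-Atp8 passed the filter on low counts, and their part in the astrocyte values was not tested. Some lists share genes: Cspg4 is in the precursor and mural lists, and Pdgfra in the precursor and meningeal lists. Rorb is an excitatory neuron marker here and also among the 56 astrocyte-enriched genes.

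**Figure D5:**
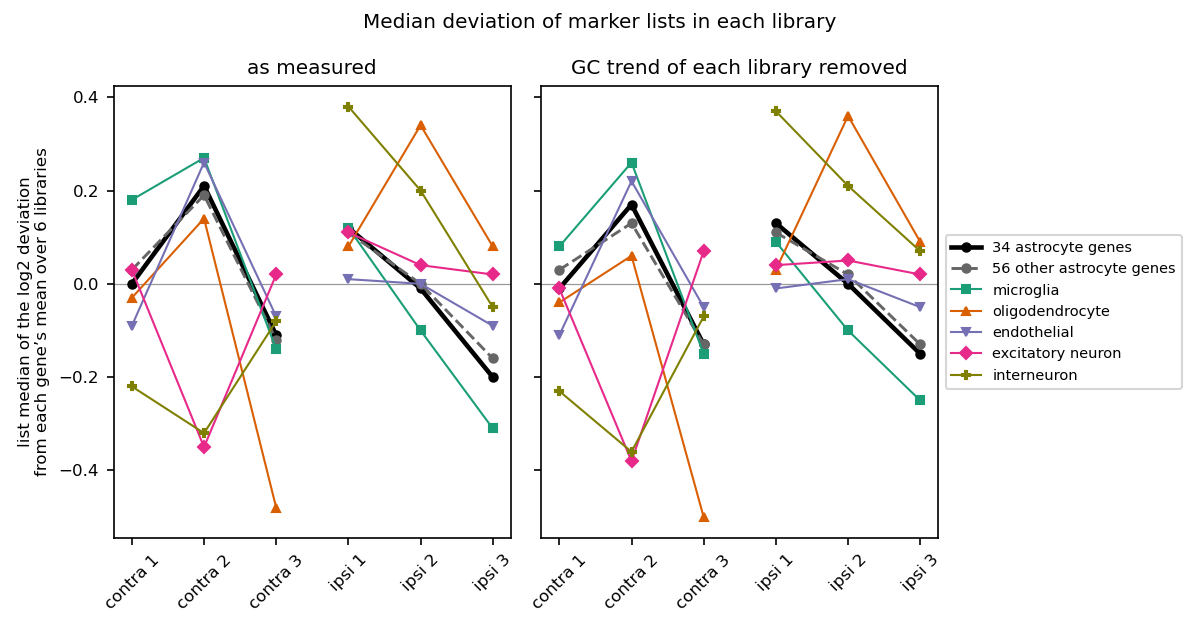
Median log2 deviation of gene lists in each library, as measured on the left and with the GC trend of each library removed on the right. The 34 astrocyte genes (thick black) and 56 other astrocyte genes (dashed) run together in both panels, with microglia and endothelial markers also above 0 and excitatory neuron markers below 0 in contralateral library 2.

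The members were also compared between animals, a test added after these values were seen. In edgeR with terms for hemisphere and mouse, 10 of the 34 differed between the 3 mice, against 6.41% of all genes: Cst3, Gfap, Mfge8, Acsbg1, Fgfr3, Slc7a10, Aldh1l1, Mlc1, Ntsr2 and Thbs2. All 10 were lower in mouse 3 than in mouse 1, by 0.75 for Cst3 and 0.58 for Gfap on the log2 scale. The count depended on the setting and on single libraries. It was 7 with RLE size factors (6.13% of all genes), 7 with a stricter filter (7.05%) and 0 without the hemisphere term (1.29%). It was 3, 11 and 4 without contralateral library 1, 2 or 3 (1.5%, 11.3% and 6.84%). Without ipsilateral library 1, 2 or 3 it was 2, 21 and 4 (2.39%, 20.9% and 4.6%). With all libraries and both terms, 29.4% of the members were called, and other lists also exceeded the share of all genes. Called were 75% of the 12 mitochondrially encoded genes tested and 60% of the 10 oligodendrocyte precursor markers. Oligodendrocyte and endothelial markers were at 28.6% each, the 12 mural cell markers at 25% and microglia markers at 20%. Other astrocyte-enriched genes were at 17.9%, excitatory neuron, interneuron and meningeal markers at 16.7% each, and reactive astrocyte genes at 0%.

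The difference between mouse 3 and mouse 1 was also set against the base composition of the transcripts. Over the 34 members it correlated with the GC content of the longest transcript at a Pearson r of -0.754 and a Spearman rho of -0.839, and over 20428 genes at -0.543 and -0.618. These are correlations across genes, which share the same 4 libraries and are not independent replicates. The 10 members that differed between mice had a median transcript GC of 55.4%. It was 48.6% in the other 24 members and 48.5% over all genes. Genes of 58% to 60% GC stood above genes of 40% to 42% GC by 0.36 and 0.35 on the log2 scale in contralateral and ipsilateral library 1, and below them in libraries 3 (-0.21 and -0.35). When this trend was removed from each library, 0 of the 34 members passed between mice, against 0.563% of all genes, and 11 had an unadjusted p under 0.05, where 17 had before. The share of all genes at that unadjusted p was not counted, so these 2 counts have no background. For the 34 members, the median of mouse 3 minus mouse 1 was -0.20 before and -0.22 after the correction. Over all genes it was 0.01 and -0.01. Below 0 were 30 and 31 of the 34, and the share of all genes was not counted. The cause of the difference between these mice was not tested. Before the correction, the difference was not particular to the members. The median was then -0.47 in microglia, -0.44 in oligodendrocyte precursor and -0.28 in oligodendrocyte markers. Other astrocyte-enriched genes were at -0.20, excitatory neuron and endothelial markers at -0.08, and mitochondrially encoded genes at 0.47. After the correction, only median deviations by library are given for these lists. Microglia markers were at 0.08 and 0.09 in contralateral and ipsilateral library 1, and at -0.15 and -0.25 in libraries 3. Precursor markers were at -0.01 and -0.04, then -0.27 and -0.10, and oligodendrocyte markers at -0.04 and 0.03, then -0.50 and 0.09. For the 10 members that had passed before the correction, the median of mouse 3 minus mouse 1 went from -0.56 to -0.32. They were picked by the uncorrected fit of the same libraries, which favours a smaller median in any refit. This fall therefore cannot measure the part of GC. With the trend removed, the members' medians were 0.17 in contralateral library 2 and -0.15 in ipsilateral library 3. Of the 34, 31 and 3 lay above their own mean. Before the correction 31 and 2 did, against 54.5% and 47.5% of all genes. In ipsilateral library 1 and contralateral library 3 the corrected medians were 0.13 and -0.13, with 29 and 5 members above their own mean. Between hemispheres, 0 of the 34 passed after this correction, alone (0.299% of all genes) or with the mouse as a block (0.95%), and the log2 fold change of Gpc4 was -0.49 (adjusted p = 0.362 alone).

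The pathways around these genes gave no call either. In the 56 other astrocyte-enriched genes, 30 of 37 reactive astrocyte genes, 25 receptors and partners of the synapse-acting factors, and 16 genes of glial phagocytosis and lipid export that were tested, 0 passed in edgeR in either direction, with or without the mouse as a block. Their median log2 fold changes were 0.05, 0.03, -0.04 and 0.03, and the counts at an unadjusted p under 0.05 were 2, 2, 2 and 4. These are 3.57%, 6.67%, 8% and 25% of the lists, against 6.15% of all genes, and the 4 of the last list are Abca1, Elmo1, Ptprj and, named after its values were seen, Itgav. Among the reactive genes, Lcn2 and C3, widely used marks of inflammatory astrocytes, fell under the filter with 38 and 19 reads in all 6 libraries. Both were thus near the lower limit of what these libraries can count.

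The genes named from these lists did not pass either. Ggta1, a glycosyltransferase gene on the reactive list, stood at 3.88, 5.88 and 5.35 CPM against 2.54, 3.11 and 3.23 CPM, without overlap, as for 6.7% of all genes in that direction (log2 fold change 0.76, adjusted p = 0.610). Timp1, a metalloprotease inhibitor gene, gave 0.74 (adjusted p = 0.744), S100a10 -0.48 and Fbln5 -0.32. Among the other astrocyte genes, Etnppl, a phospholyase gene, stood at 15.6, 26.1 and 18.5 CPM against 10.8, 16.1 and 15.1 CPM, higher in each mouse though the hemispheres overlap (0.51, adjusted p = 0.776, and 0.0715 with the block). Fabp7, the fatty acid binding protein of radial glia, gave -0.43, Phkg1 0.38 and Rgs20 -0.21. Of the partners, the matrix protein gene Tnc gave -0.56, the glypican Gpc3 0.46 and the syndecan Sdc4 0.18. Of the phagocytosis and lipid export genes, Abca1, which loads lipid onto Apoe, gave 0.28, Axl 0.20, Elmo1 -0.32 and Ptprj -0.34, and none of them passed.

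Circular RNAs (circRNAs) were counted in a separate table. They are closed loops in which a later exon is spliced back to an earlier one. Of 1488 circRNAs in the deposited table, each with at least 1 read in every library, 1 lay within a member: a circle of Slc7a11 at chr3:50417988-50438915 on the minus strand. It spans exons 2 to 6 of the GENCODE transcript, all coding, 514 bases when spliced, and its junction is the sequence shown at the start. Its back-splice reads numbered 3, 5 and 2 in contralateral and 1, 11 and 6 in ipsilateral libraries, so the hemispheres overlap. The log2 fold change was -0.53 ± 0.75 (SE), with an adjusted p of 0.999, and the 95% interval, from -2.00 to 0.93 with 28 reads in all, leaves moderate changes undetectable at this depth. In that comparison 0 of 1468 circRNAs passed in edgeR, with 53 at an unadjusted p under 0.05 (3.61%). The other 33 members had no circRNA in the table.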

How the data were processed

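RNA was measured in 6 total-RNA libraries from V1 of 3 mice. The authors deposited raw read counts per Ensembl gene and raw back-splice read counts per circRNA, per the file headers. Tools listed in the submitters' processing notes are featureCounts, HISAT2, limma and DESeq2, with the build GRCm38. The sources used here do not give the strand setting of the counts or the circRNA caller. For 6 members (Slc1a2, Glul, Slc7a10, Aldh1l1, Fgfr3 and Gpc5), which share exon bases with a gene on the other strand, counts are thus uncertain. Symbols came from GENCODE release 21 (52489 IDs matched). Columns of other series numbered 0.

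Genes were compared with edgeR 4.0.16 (R 4.3.3; TMM, quasi-likelihood F test, filterByExpr at min.count 10 and min.total.count 15, Benjamini-Hochberg adjustment over all genes tested, threshold 0.05). CircRNAs needed 2 reads in 3 libraries. SE was computed as the size of the log2 fold change divided by the root of F. CPM use TMM scaling; deviations and per-mouse differences use log2(CPM + 0.5). Libraries of a number come from the same mouse per the labels, so the mouse block was set beside the fit without it; the libraries' deviations from their hemisphere's mean correlated, for mice 1 to 3, at 0.431, 0.0775 and 0.172, against at most -0.188, 0.177 and 0.177 with another mouse. Without the block, the p-values reflect the spread between libraries of the same hemisphere, which come from these 3 mice. With the block, and for the mouse term, they reflect the spread left after mouse and hemisphere are fitted. Alternatives were DESeq2 1.42.0, RLE factors, other filters, the mt-Rnr1 sets (split at 1000 CPM) and leaving out libraries or mice. After the data were seen, the mouse term and a GC correction (loess of log2 deviation on the GC of the longest transcript, span 0.3, as an offset, 20428 genes) were added. The scripts were tested on simulated data. Figures used matplotlib 3.10.9.

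The members, roles and lists were chosen with earlier results of these data known. All 34 members are named; values per library are given for the 5 members per direction with the smallest p, the most abundant per kb of each role, any that passed in either fit, and any that moved by over 0.2 on the log2 scale in the same direction in all 3 mice; from each related list, 2 genes per direction are named, except 1 that is not reported here.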

Additional observations from a re-analysis of the deposited data

How the results depend on the processing

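With the mouse as a block (replicate block), 183 genes passed in place of 26, but still none of the 34 astrocyte genes; DESeq2 passed 88 genes, no filter 109, the GC correction 61, and the GC correction with the replicate block 194. Leaving out a library or a mouse gave 0 (without contralateral library 2 or mouse 2) to 39 genes. Of the astrocyte genes, 1 (Thbs4) passed without the filter, 1 within the libraries high in mt-Rnr1, and 0 to 1 when a library or mouse was left out; the cause was not tested. The number of members differing between mice was 0 with the GC correction, 0 without the hemisphere term, and 2 to 21 when a library was left out. The block changed no call of the members, related lists or the Slc7a11 circle. The median log2 fold change of the members ran from -0.04 to 0.17 over the settings, so its sign was not stable. The 4 related lists had 0 calls in each setting run.

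Apoe, Clu, Gpc4, Megf10, Ntsr2, Sparcl1 and Thbs2 kept the sign of their log2 fold change in all 19 alternatives, which reuse the same libraries. Several came near 0 when a library or mouse was left out: Thbs2 reached 0.01, Megf10 and Ntsr2 0.04, Apoe 0.05 and Clu 0.06. Sparcl1 was at 0.00 within the low mt-Rnr1 libraries, and Gpc4 ranged from -0.56 to -0.30 on leaving out. The other 27 members changed sign in some, by values of at most 0.32 in size on the new side. With DESeq2, Vim was at -0.00, Aqp4 -0.03, Acsbg1 -0.01, Sox9 -0.00 and Mfge8 -0.02. With RLE factors, Aqp4 was at -0.01 and Mfge8 -0.00; with no filter, Aqp4 -0.01; with the stricter filter, Slc7a10 0.01; with the replicate block, Slc7a10 0.00. With the GC correction, Aqp4 was at -0.02, Acsbg1 -0.00, Sox9 -0.00 and Mfge8 -0.02, and with the replicate block added Aqp4 -0.02, Slc4a4 -0.00, Acsbg1 -0.01, Sox9 -0.00 and Mfge8 -0.02. With the mt-Rnr1 set as a term, Slc7a10 was at 0.10, Aqp4 -0.03, Slc4a4 -0.07, Atp1b2 -0.01, Aldh1l1 0.01 and Sox9 -0.02. Within the high mt-Rnr1 libraries, Slc7a10 was at 0.16, Aqp4 -0.09, Atp1b2 -0.06, Hepacam -0.01, Gjb6 0.27, Acsbg1 -0.00, Sox9 -0.07, Chrdl1 0.08 and Mfge8 -0.07. Within the low ones, Gfap was at 0.32, Vim -0.16, Slc1a2 -0.13, Slc1a3 -0.08, Slc7a10 0.01, Slc4a4 -0.24, Gja1 -0.03, Aldh1l1 0.11 and Thbs4 0.12.

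Leaving out a library or a mouse in turn, these members crossed 0, with log2 fold changes of Acsbg1 from -0.14 to 0.17, Aldh1l1 from -0.18 to 0.11, Aldoc from -0.08 to 0.23, Aqp4 from -0.10 to 0.09, Atp1b2 from -0.09 to 0.12, Chrdl1 from -0.15 to 0.07 and Cst3 from -0.05 to 0.35. The same ranges were Fgfr3 from -0.06 to 0.26, Gfap from -0.23 to 0.17, Gja1 from -0.08 to 0.17, Gjb6 from -0.30 to 0.15, Glul from -0.02 to 0.18, Gpc5 from -0.17 to 0.07 and Gpc6 from -0.13 to 0.01. Further ranges were Mfge8 from -0.13 to 0.14, Mlc1 from -0.06 to 0.20, S100b from -0.02 to 0.19, Slc1a2 from -0.06 to 0.09, Slc1a3 from -0.09 to 0.11, Slc4a4 from -0.13 to 0.15 and Slc7a10 from -0.31 to 0.28. The last were Slc7a11 from -0.02 to 0.20, Sox9 from -0.07 to 0.09, Sparc from -0.01 to 0.21 and Vim from -0.08 to 0.11.

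With 3 mice, changes under about 1.5-fold were mostly not detectable, and each subset by mt-Rnr1 holds 1 library on one side, whose spread is assumed to equal that of the other side.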
